A study of Danio rerio with 15 samples.

Results

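The male brain's answer to a selenium supplement was read from 8 whole brains of zebrafish, 4 from males on the selenium diet and 4 from males on the control diet, all of them 1-year-old fish of a strain that the labels call Transgenic Mosaic 1. The supplemented food carried sodium selenite and held 5.6 ppm selenium, the control food held 1.4 ppm, and each was fed for 14 days. Every array held the RNA of 1 fish. The comparison took all 15502 probe sets of the 15617 on the array that were not the manufacturer's controls, and 8 of the 15 arrays of the study, the others being females on the same diets. Values are log2 expression values, in which a difference of 1 is a factor of 2, and each gene is given as males on selenium minus male controls. Nothing in the labels says whether fish shared a tank, a dissection day or a hybridisation batch, and a label naming a transgenic strain does not say what the transgene is.

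Selenium enters proteins as selenocysteine, the active residue of glutathione peroxidases, thioredoxin reductases and deiodinases, and the brain holds on to selenium when the supply is short. A whole fish brain lies between the eyes, under the skin and skull and beside the jaw and neck muscles, and the pineal organ sits on its roof. Contractile proteins, creatine kinases and sarcoplasmic calcium pumps mark skeletal muscle, opsins and the proteins of the light-driven cascade mark photoreceptors, and keratins mark skin. In RNA of a whole organ, fewer cells of a type and less RNA per cell cannot be told apart.

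No gene passed the test in males. Limma called 0% of the 15502 probe sets at an adjusted p under 0.05, and the smallest adjusted p, that of the muscle creatine kinase gene ckmt2a, was 0.478. At an unadjusted p under 0.05 there were 345 probe sets higher in males on selenium (2.23%) and 466 lower (3.01%), 811 in all, where 5% would be 775. All 4 males on selenium lay above all 4 controls for 226 probe sets (1.46%) and below them for 410 (2.64%). The difference was above 0 for 45.9% of the probe sets, with a median of -0.01, and the 95% confidence interval of a difference reached a median of 0.25 to either side. The number of fish limits this precision. All differences of single genes below are therefore descriptions of these 8 fish, and their p-values, which also draw on the spread among females, are descriptions too. The adjusted p of every one named other than ckmt2a was 0.937 or higher. Array medians over the 15 fish lay between 7.22 and 7.33, and any pair of male arrays correlated at 0.983 to 0.992 over probe sets. As a sign of RNA quality, the gapdh controls of the array gave a 3′ minus 5′ value of 0.93 ± 0.21 for selenium males and 1.04 ± 0.16 for control males (SD, n = 4 each). The mean of the neuronal markers lay between 11.96 and 12.13 in every male.

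Of the large differences, 87 upward ones and 7 downward ones rested on 1 of the males on selenium. A difference of at least 0.5 was found upward for 258 probe sets (1.66%) and downward for 124 (0.8%). To see how many males on selenium stood behind each, every one of them was left out in turn. Controls were not left out here, so a difference made by 1 control, upward or downward, was not counted. The shares below therefore do not compare how often single fish made upward and downward differences. The 87 were 33.7% of the higher probe sets, and each lost more than 50% of the difference without 1 particular fish. Selenium replicate 1 carried 39 of them, replicate 2 carried 26, replicate 4 carried 15 and replicate 3 carried 7. The 7 were 5.65% of the lower probe sets. The fish carried different genes: 16 of the 39 probe sets of replicate 1 belonged to the muscle lists, 6 of the 26 of replicate 2 and 5 of the 15 of replicate 4 to the retina lists, and none of the 7 of replicate 3 to either. At the other end, 22 higher and 21 lower probe sets kept at least 2/3 of the difference without any 1 of the males on selenium and had groups that did not overlap. These included 4 muscle probe sets and 1 keratin probe set. The remaining 245 lay between the 2 kinds.

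**Figure D1:**
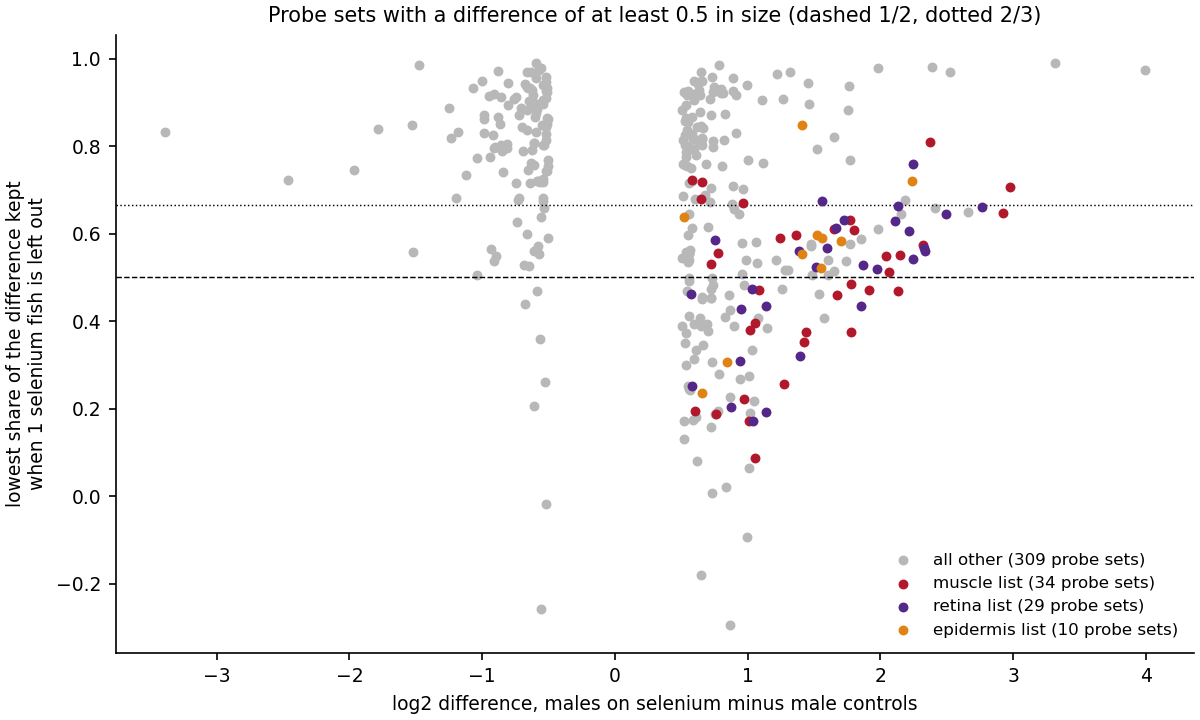
Each point is 1 probe set with a log2 difference of at least 0.5 in size between males on selenium and male controls (horizontal axis, log2 units). The vertical axis is the lowest share of that difference kept when 1 of the 4 males on selenium is left out, and the points of the muscle and retina lists lie on the right side only, mostly under the dotted line at 2/3 of the difference.

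Some probe sets split the fish in steps. In 129 probe sets the 8 males fell into a high and a low set at least 2 log2 units apart, and in 67 of them the step set a single fish against the other 7. None of the 129 steps ran between the diets, with 4 males on selenium on 1 side and 4 controls on the other. Selenium replicate 1 alone was high in 24, of which 19 belonged to the muscle lists. Replicates 2 and 4 together were high in 20, of which 14 belonged to the retina lists, and replicate 2 alone was high in 15, of which 6 did. Replicates 1 and 3 of the selenium diet were high together with control replicate 2 in 5 probe sets, 4 of them of the epidermis list. Control replicate 3 stood alone as well, low in 9 probe sets and high in 6, none of them in these lists.

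Skeletal muscle genes were higher in the males on selenium and by amounts that differed from fish to fish. The mean of 49 muscle genes was 8.53, 6.75, 7.13 and 6.29 in selenium replicates 1 to 4, against 6.23, 6.38, 6.16 and 6.15 in control replicates 1 to 4. Replicates 1, 3 and 2 lay above every control and replicate 4 lay among them. Of 24 genes of the fast contractile apparatus, 23 were higher, with a median difference of 0.87. Of 11 genes of muscle calcium handling, 8 were higher, with a median of 1.44, and of 12 genes of muscle energy metabolism, 11 were higher, with a median of 0.62. Without selenium replicate 1 these medians were 0.26, 0.67 and 0.45. Among 4 contractile genes of the heart, 1 was higher and the median was -0.15. Over all probe sets 45.9% were higher and the median was -0.01.

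**Figure D2:**
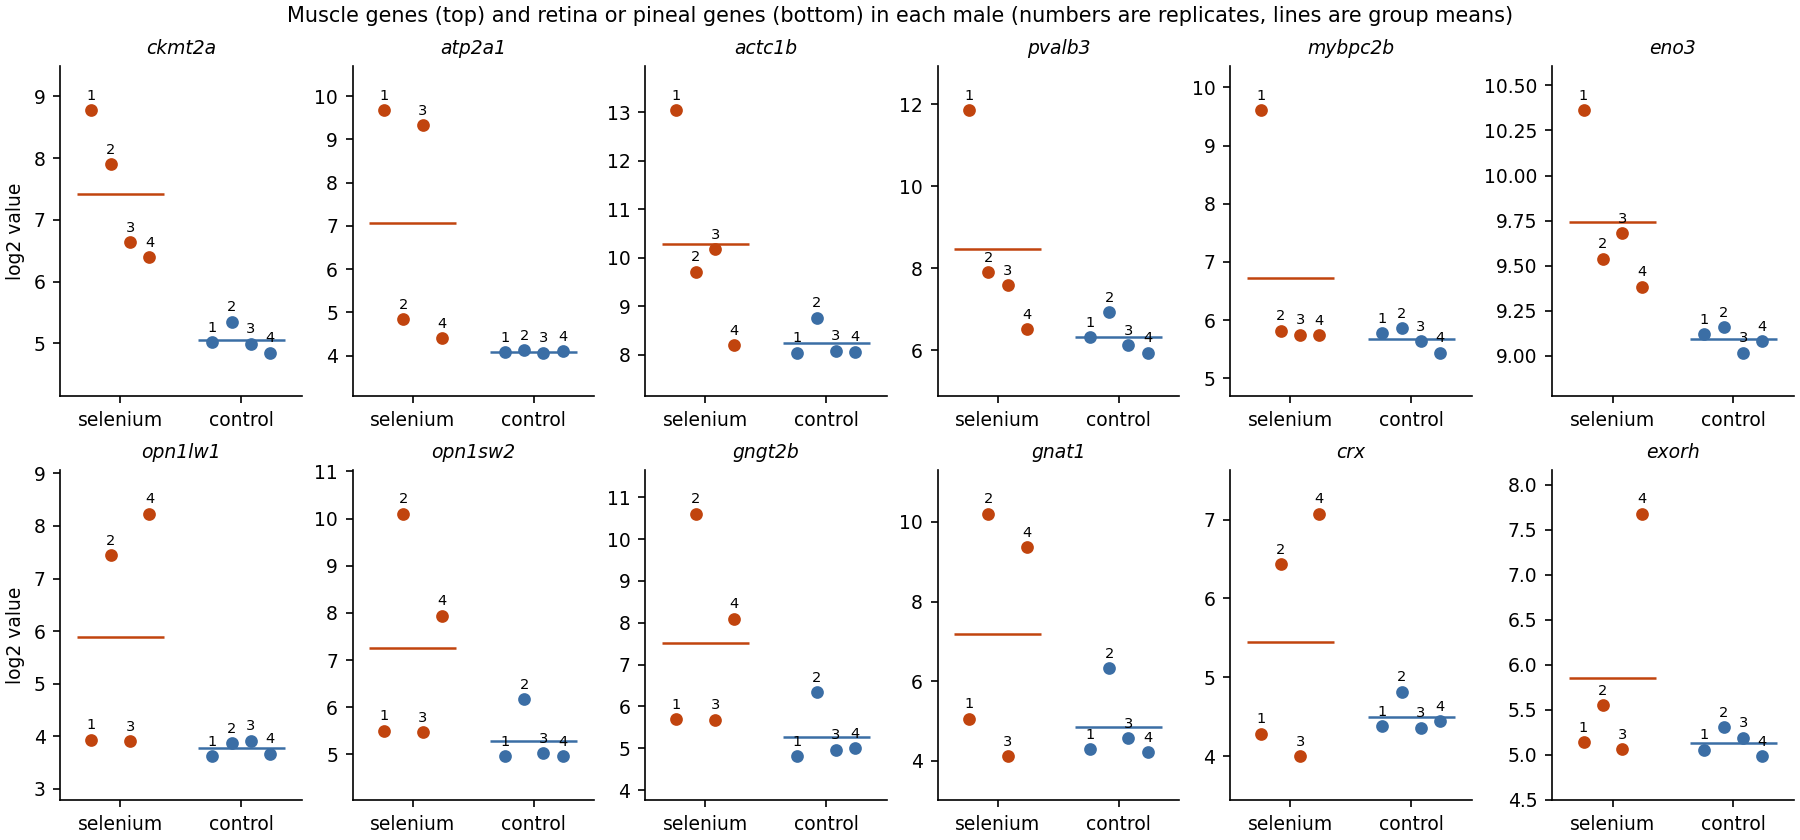
Log2 values of 6 muscle genes (top) and 6 genes of retina or pineal organ (bottom) in each of the 8 males, with replicate numbers above the points and group means as lines. Vertical scales differ between panels. For ckmt2a and eno3 all 4 males on selenium lie above all controls, while mybpc2b is high in replicate 1 alone, atp2a1 in replicates 1 and 3, and the photoreceptor genes in replicates 2 and 4.

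Muscle genes differed in how far each fish stood out, and they are grouped here by those values. Some were high mainly in selenium replicate 1. The gene mybpc2b, which encodes a myosin-binding protein of fast fibres, read 9.61, 5.82, 5.75 and 5.74 in selenium replicates 1 to 4, against 5.77, 5.86, 5.64 and 5.44 in controls. Without replicate 1 its difference was 0.09 in place of 1.05 ± 0.65 (SE). Every SE of a difference in this text is that of the limma fit, which pools the spread within all 4 groups, females included. The SD of the muscle mean was 0.96 in males on selenium, against 0.11 in male controls and 0.10 and 0.15 in females on selenium and female controls. For genes that varied most among males on selenium, the pooled SE is therefore smaller than an SE of the males alone. The calcium sensor of the fast troponin complex, tnnc2.2, read 10.42, 6.95, 6.81 and 6.11, against 6.06, 6.82, 6.26 and 6.04 in controls, and its difference without replicate 1 was 0.33 in place of 1.27. The parvalbumin gene pvalb3, for a calcium buffer that speeds relaxation of fast muscle, read 11.86 in replicate 1 and 7.90, 7.58 and 6.51 in the next 3, against 6.32, 6.93, 6.13 and 5.94 in controls. Here replicates 2 and 3 also lay above the controls, by far less than replicate 1.

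For other muscle genes replicates 1 and 3 were the highest. For atp2a1, a calcium pump of the sarcoplasmic reticulum, the values were 9.68, 4.84, 9.33 and 4.40 in males on selenium, against 4.07, 4.12, 4.07 and 4.11 in controls. All 4 males on selenium lay above all controls, and the step within the selenium group was several times the step to the controls. Its difference of 2.97 ± 0.99 kept 2.101 without replicate 1 and 2.22 without replicate 3, so it counted among the differences spread over the fish although 2 fish made most of it. The sarcolumenin gene srl, for a calcium-binding protein of the same membrane system, read 8.08, 6.69, 8.47 and 6.81, against 6.46, 6.77, 6.34 and 6.61 in controls. For the paralogue atp2a1l the order of the fish was that of the list mean, with 11.12, 6.95, 8.06 and 5.96, against 5.04, 5.16, 5.03 and 5.16 in controls. The slow myosin heavy chain gene smyhc1 followed the same order, with 7.80, 5.06, 6.11 and 4.40, against 4.17, 3.96, 4.01 and 4.14 in controls.

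In further muscle genes all 4 males on selenium lay above all controls, as for atp2a1, with smaller steps among them. The mitochondrial creatine kinase gene ckmt2a, whose product passes phosphate from mitochondria to creatine in striated muscle, read 8.78, 7.90, 6.64 and 6.39, against 5.02, 5.35, 4.99 and 4.85 in controls. The lowest male on selenium lay more than 1 log2 unit above the highest control, and the difference was 2.37 ± 0.39 (unadjusted p = 3.1e-05). Leaving out single males on selenium gave 1.92 to 2.72. The muscle enolase gene eno3 read 10.36, 9.54, 9.68 and 9.38, against 9.12, 9.16, 9.02 and 9.08 in controls. The inhibitory troponin gene tnni2b.1 read 6.46, 5.94, 5.60 and 5.65, against 5.11, 5.52, 5.08 and 5.32 in controls. Selenium replicate 1 was the highest fish for all 3 genes. The myoglobin gene mb, for the oxygen store of muscle, was an exception to that order, with 6.51, 6.65, 6.86 and 6.32, against 6.21, 6.26, 6.14 and 6.04 in controls.

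A probe set of gapdh ran with these genes. It read 11.76, 8.32, 10.78 and 7.74 in males on selenium, against 7.95, 7.71, 7.34 and 6.87 in controls, a difference of 2.18 ± 0.69. Selenium replicates 1 and 3 were high, as for atp2a1. The 3′ gapdh control of the array did not share this step. It read 13.32, 13.19, 13.20 and 13.28 in males on selenium, against 13.26, 13.20, 13.20 and 13.23 in controls. The gapdh gene encodes a glycolytic enzyme. Of the 21 glycolysis genes 10 were higher, with a median difference of -0.004, which was 0.017 when the arrays were quantile-normalised again. Probe sets of genes with close paralogues, such as actins, parvalbumins, myosins and keratins, may read more than 1 of them.

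Photoreceptor genes were high in other fish than muscle genes. The mean of 40 retina genes was 5.05, 7.36, 4.87 and 6.98 in selenium replicates 1 to 4, against 4.84, 5.39, 4.98 and 4.7982 in control replicates 1 to 4, so replicates 2 and 4 stood out and replicates 1 and 3 lay within the range of the controls. All 14 cone genes were higher, with a median difference of 1.79, and 9 of 10 rod genes, with a median of 0.90. Of 16 genes shared by photoreceptors or used in the inner retina, 14 were higher, with a median of 0.72. The cone and rod medians were 0.92 and 0.41 without selenium replicate 2 and 1.33 and 0.496 without replicate 4, and the shared median was 0.48 and 0.24. None of these 40 genes had groups that did not overlap, a share near the 1.46% of all probe sets with males on selenium above all controls. Control replicate 2 was the highest control for the cone and the rod list alike, at 5.70 and 5.67.

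The cone genes show how the 2 fish differed. The red cone opsin gene opn1lw1 read 3.93, 7.44, 3.91 and 8.23, against 3.62, 3.87, 3.92 and 3.67 in controls. The blue cone opsin gene opn1sw2 read 5.51, 10.10, 5.47 and 7.94, against 4.96, 6.17, 5.03 and 4.97 in controls. For the ultraviolet cone opsin gene opn1sw1 the values were 3.83, 8.24, 3.93 and 5.59, against 3.92, 4.44, 3.86 and 3.80 in controls. Replicate 2 was thus higher than replicate 4 for the short-wavelength opsins and lower for the red one. The cone transducin genes gngt2b and gnb3b and the cone phosphodiesterase gene pde6c were highest in replicate 2 as well, with differences of 2.25, 2.21 and 2.49. Another cone transducin gene, gngt2a, was higher in replicate 4, at 8.29, than in replicate 2, at 7.77.

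Rod genes were nearly as high in replicate 4 as in replicate 2. The rod transducin gene gnat1 read 5.06, 10.21, 4.11 and 9.37, against 4.30, 6.33, 4.57 and 4.22 in controls, and its partner gngt1 read 6.54, 11.10, 4.996 and 11.29, against 4.68, 7.50, 6.02 and 4.65 in controls. Genes that photoreceptors and their support cells share leaned to replicate 4. The gene crx, for a transcription factor of photoreceptors and pinealocytes, read 4.28, 6.44, 3.998 and 7.07, against 4.38, 4.82, 4.36 and 4.44 in controls. The retinoid isomerase gene rpe65a, of the pigment epithelium, read 6.52, 8.09, 6.25 and 9.56, against 5.60, 6.33, 7.40 and 7.32 in controls, where 2 controls lay above 2 of the males on selenium.

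Replicate 4 also held the highest values of the pineal genes. The pineal opsin gene exorh read 5.14, 5.55, 5.06 and 7.68, against 5.06, 5.31, 5.19 and 4.98 in controls, and without replicate 4 its difference was 0.12 in place of 0.72. The melatonin enzyme gene aanat2, used in pineal organ and retina, read 4.82, 6.05, 4.82 and 6.96, against 5.01, 5.04, 5.68 and 4.82 in controls. All 4 pineal genes measured were higher, with a median difference of 0.41, which was 0.10 without replicate 4. Other tissues of the eye did not stand out. Of 10 lens genes 5 were higher, with differences between -0.19 and 0.13, and of 7 pigment cell genes 5 were higher, with differences between -0.13 and 0.20.

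**Figure D3:**
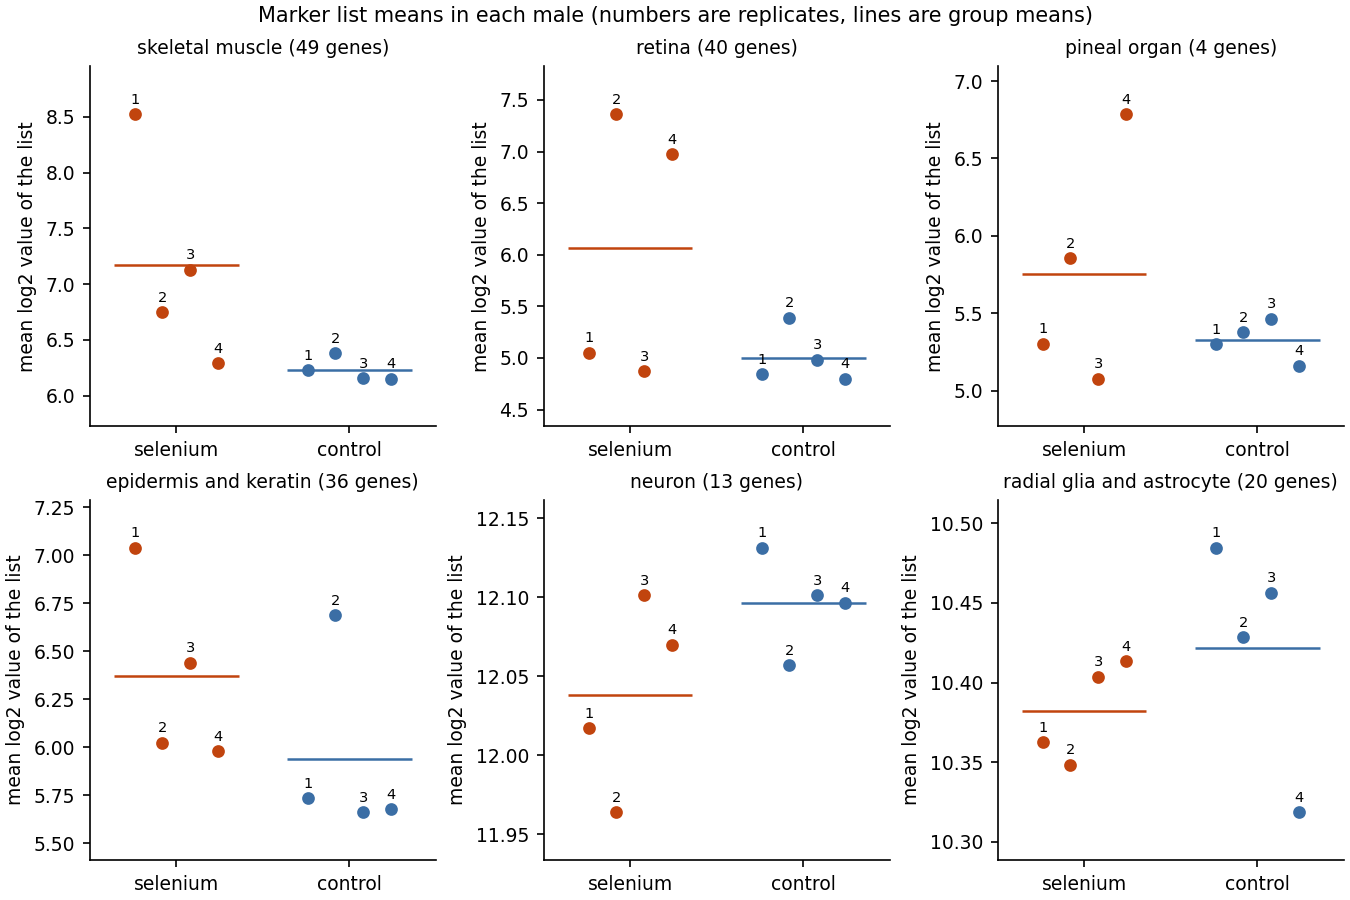
Mean log2 value of 6 marker lists in each of the 8 males, with replicate numbers above the points and group means as lines. Muscle is highest in selenium replicate 1 (8.53), retina in replicates 2 and 4 (7.36 and 6.98), pineal organ in replicate 4 and epidermis in selenium replicate 1 and control replicate 2, while the scales of the neuron and radial glia panels span about 0.2 log2 units.

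Keratins and other epidermal genes were high in fish of both diets. Of 36 genes, 34 were higher in males on selenium, with a median difference of 0.25, which was 0.074 without selenium replicate 1, 0.15 without control replicate 3 and 0.397 without control replicate 2. The list mean was 7.04, 6.02, 6.44 and 5.98 in selenium replicates 1 to 4, against 5.73, 6.69, 5.66 and 5.68 in controls. Control replicate 2 exceeded 3 of the 4 males on selenium. The basal keratin gene krt5 read 11.30, 8.35, 9.77 and 8.28, against 5.83, 10.28, 7.22 and 5.42 in controls, and krt91 read 11.94, 8.60, 10.995 and 8.58, against 7.73, 11.31, 7.98 and 6.87. For 1 of the 36, the keratin gene krt15, the groups did not overlap, a share near the 1.46% over all probe sets. It read 9.81, 9.25, 9.16 and 8.46 in males on selenium, against 8.11, 7.49, 7.50 and 7.94 in controls, and control replicate 2 had the lowest value of all, unlike its place for krt5 and krt91. The difference of krt15 was 1.41 ± 0.33 (unadjusted p = 0.00079). The part of muscle, eye or skin tissue in the values of other genes was not tested.

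To see what was left beside these signals, the fit was repeated with the muscle and retina list means of each fish as covariates. Both means are themselves higher in males on selenium, so this fit also removes any diet difference that moves with them, and the median standard error was 0.217 in place of 0.117. It called 0 probe sets, with a smallest adjusted p of 0.122, and 508 had an unadjusted p under 0.05, of which 99 also had one without the covariates. The genes ckmt2a and atp2a1 are part of the muscle mean, so their values with covariates do not show what was left beside muscle. In that limma fit the difference of ckmt2a was 0.52 (unadjusted p = 0.16) and that of krt15 0.63 (unadjusted p = 0.29). For atp2a1 limma gave 2.74 (unadjusted p = 0.011), near its value without covariates, and for angptl4, a secreted inhibitor of lipoprotein lipase, it was 1.80 (unadjusted p = 0.00065) in place of 0.92. The angptl4 values were 5.68, 5.88, 6.71 and 6.71, against 5.17, 5.27, 5.16 and 5.72 in controls, so all but selenium replicate 1 lay above every control. The gene with the smallest limma p in that fit was cnpy4, a chaperone of Toll-like receptors, at 1.87 (unadjusted p = 7.9e-06, adjusted p = 0.122). Its values of 5.90, 6.04, 7.58 and 6.37, against 6.05, 5.82, 6.47 and 6.53 in controls, gave 0.25 without covariates, and replicate 3 alone stood high.

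Several genes outside muscle, retina and skin had all 4 males on selenium on 1 side of all controls. Of all probe sets whose groups did not overlap, 64.5% were lower. The nuclear import receptor gene kpna3 read 9.57, 9.64, 9.70 and 9.79 in males on selenium, against 10.00, 9.94, 10.09 and 9.99 in controls, a difference of -0.33 ± 0.07 (unadjusted p = 0.00029). Its groups did not overlap, but a second probe set of kpna3 differed by -0.08, with overlapping groups. For sp8b, a zinc finger transcription factor of the developing forebrain, the values were 7.56, 7.28, 7.47 and 7.68, against 8.06, 8.10, 7.81 and 8.03 in controls. The natriuretic peptide clearance receptor gene npr3 read 7.45, 7.39, 7.59 and 7.44, against 8.07, 7.83, 7.83 and 7.81 in controls. In each of these 3 genes the males on selenium lay below every control. They were named for their small p, a choice that favours groups without overlap.

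Further lower genes with small p were erf, ezh2, arid2 and rnf141. The ETS repressor gene erf read 8.42, 8.501, 8.68 and 8.44, against 8.69, 8.96, 8.87 and 9.06 in controls. The gene of the histone H3 methyltransferase ezh2 read 9.10, 9.18, 9.25 and 9.21, against 9.42, 9.39, 9.47 and 9.37 in controls, and arid2, a subunit of a chromatin remodelling complex, read 6.96, 6.89, 6.91 and 6.85, against 7.20, 7.11, 7.02 and 7.14. Their differences were -0.39, -0.23 and -0.22, and for all 3 the groups did not overlap. The choice by small p favours this, so the lack of overlap adds no support. A probe set of the RING finger gene rnf141 differed by -0.42, at 3.99, 4.01, 3.89 and 4.09, against 4.29, 4.29, 4.60 and 4.49 in controls. Its signal was low, with every male under 5, the limit of the filter for low signal. With the muscle and retina covariates the differences of kpna3, sp8b, npr3, erf, ezh2, arid2 and rnf141 lay between -0.41 and -0.16, with p between 0.075 and 0.22.

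**Figure D4:**
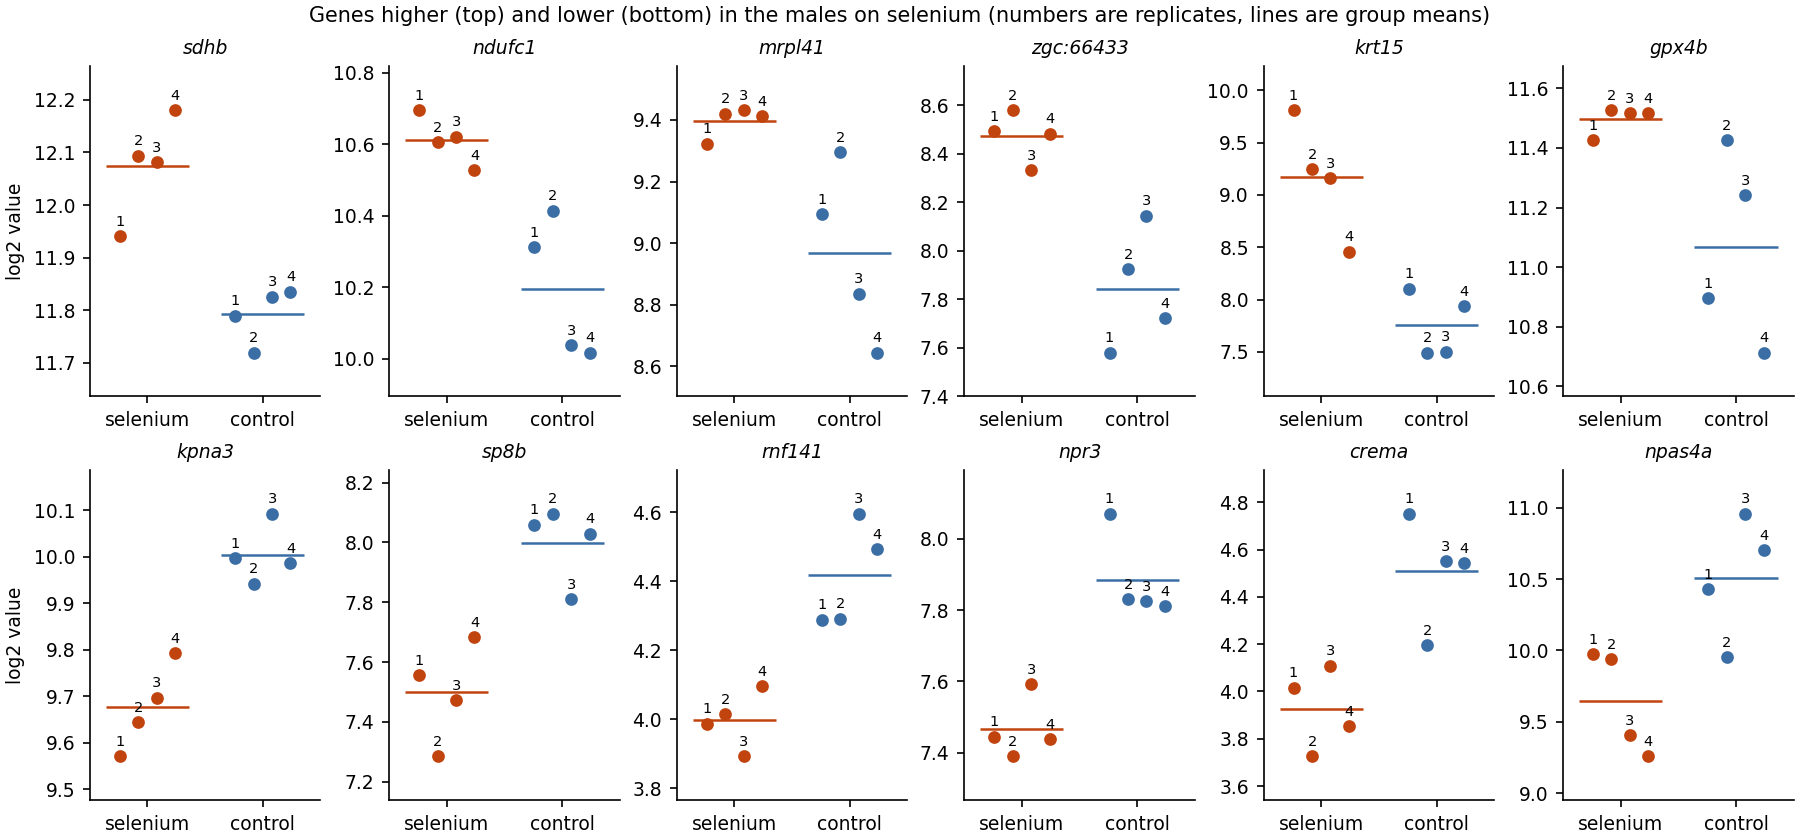
Log2 values of 6 genes that were higher (top) and 6 that were lower (bottom) in males on selenium, in each of the 8 males, with replicate numbers above the points and group means as lines. Vertical scales differ between panels. In all panels but that of npas4a the groups do not overlap, though those of gpx4b meet at 11.43, and the differences are mostly under 0.7 log2 units.

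Other genes were higher. The uncharacterised gene zgc:66433 read 8.49, 8.58, 8.33 and 8.48, against 7.58, 7.92, 8.14 and 7.72 in controls, a difference of 0.63 ± 0.15. The gene tmco6 read 5.85, 5.97, 5.91 and 5.82, against 5.60, 5.61, 5.55 and 5.42 in controls. For pabpc4, a poly(A)-binding protein, the values were 9.09, 8.07, 8.29 and 8.36, against 7.70, 7.99, 7.71 and 7.68 in controls, and selenium replicate 1 was again the highest. A probe set of leo1, a subunit of the Paf1 elongation complex, was higher by 0.42 ± 0.11, with overlapping groups, while its other probe set was higher by 0.09. Among genes carried by 1 fish outside these tissues was oxt, the gene of the fish oxytocin, named here after its values were seen. It read 12.37, 12.21, 10.98 and 12.08, against 12.57, 12.24, 12.66 and 12.50 in controls, and replicate 3 alone was more than 1 log2 unit below the others.

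Immediate early genes, which neurons switch on within minutes of activity, were lower in the males on selenium. Of 40 genes measured, 33 were lower, with a median difference of -0.18, and 5 had all 4 males on selenium below all controls, where 2.64% of all probe sets did. The list mean was 8.23, 8.12, 8.02 and 7.95, against 8.28, 8.11, 8.49 and 8.32 in controls, so that control replicate 2 lay among the males on selenium. The largest difference was that of npas4a, a transcription factor of active neurons, which read 9.97, 9.94, 9.41 and 9.26, against 10.43, 9.95, 10.96 and 10.70 in controls. Its difference was -0.87 ± 0.24 (unadjusted p = 0.0029). The Fos gene fosab read 9.73, 9.12, 9.20 and 8.91, against 10.08, 9.20, 10.61 and 9.88 in controls, and egr4 read 8.86, 8.83, 8.75 and 8.81, against 9.20, 8.75, 10.46 and 9.50. Control replicate 3 was the highest fish for these 3 genes, and without it the difference of egr4 was -0.34 in place of -0.66 and that of fosab -0.48 in place of -0.70.

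Members with groups that did not overlap included crema, sik1 and maff. The repressor gene crema read 4.02, 3.73, 4.11 and 3.85, against 4.75, 4.19, 4.55 and 4.54 in controls, a difference of -0.58 ± 0.13 (unadjusted p = 0.00058). All these values lay under 5, the limit of the filter for low signal. The salt-inducible kinase gene sik1 read 10.14, 9.93, 9.94 and 9.76, against 10.45, 10.37, 10.18 and 10.19 in controls, and the small Maf gene maff read 9.85, 9.71, 9.83 and 9.81, against 9.98, 9.96, 10.02 and 9.94. In each of the 3, the highest male on selenium lay below the lowest control. The 7 members that were not lower differed by at most 0.13.

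**Figure D5:**
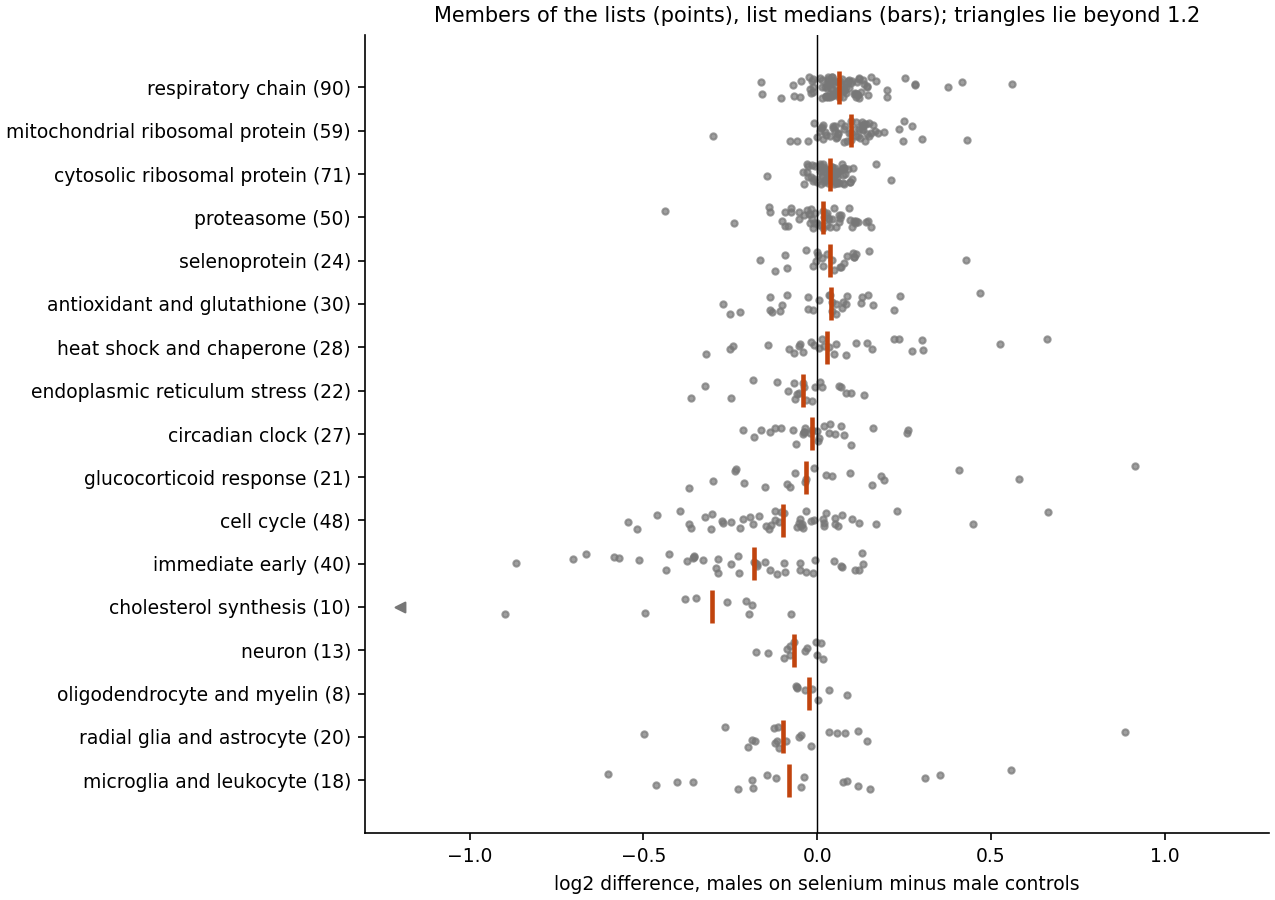
Log2 differences between males on selenium and male controls (horizontal axis) of the members of 17 gene lists, each read by the brightest probe set of the gene, with the number of genes in brackets and list medians as bars. The medians of the immediate early and cholesterol synthesis lists lie furthest below 0, at -0.18 and -0.30, and those of the mitochondrial ribosomal and respiratory chain lists at 0.10 and 0.06.

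All 10 genes of cholesterol synthesis measured were lower, with a median difference of -0.30, where 45.9% of all probe sets were higher. For 2 of the 10 all males on selenium lay below all controls, as for 2.64% of all probe sets. Mevalonate kinase, mvk, read 6.31, 6.22, 6.22 and 6.30, against 6.75, 6.23, 6.70 and 6.88 in controls. The squalene synthase gene fdft1 read 9.74, 9.68, 9.86 and 9.61, against 10.05, 10.08, 9.87 and 9.92 in controls, and the sterol oxidase gene msmo1 read 8.89, 8.44, 8.96 and 8.00, against 9.13, 9.10, 8.66 and 9.37. Control replicate 2 lay beside the males on selenium for mvk, and control replicate 3 for msmo1 and fdft1. The list's largest differences rested on probe sets with 2 separate levels. The last enzyme gene of the pathway, dhcr7, read 10.09, 7.32, 9.42 and 7.32, against 7.46, 10.23, 10.02 and 10.04 in controls, so that fish of both diets lay at either level. The demethylase gene cyp51 read 5.70, 8.00, 5.18 and 5.27, against 6.02, 8.53, 8.06 and 8.70 in controls, by its brightest probe set, and a second one differed by -1.97. The other 2 cyp51 probe sets differed by 0.04 and 0.02.

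Such levels also made some of the largest single differences. A probe set of wls, the carrier that brings Wnt proteins to the cell surface, read 10.30, 10.04, 9.89 and 10.50 in males on selenium, against 4.67, 10.41, 4.83 and 4.84 in controls, a difference of 3.99 ± 1.497. The other wls probe sets differed by -0.59 and -0.40, that is in the opposite direction. For u2surp, a splicing factor, a probe set read 9.40, 9.48, 9.43 and 9.21, against 4.99, 9.11, 5.20 and 4.96, while the others differed by -0.13 and 0.02. A probe set of si:dkey-260j18.2 read 8.43, 8.11, 8.31 and 8.34, against 8.55, 5.22, 4.86 and 5.01, and its others differed by -0.22 and -0.45. In each of the 3 genes 1 control stood at the level of the males on selenium, and the other probe sets of the gene did not share the step.

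Genes of the mitochondrion were slightly higher. Of 90 respiratory chain genes 76 were higher, with a median difference of 0.06, and 12 had all 4 males on selenium above all controls, where 1.46% of all probe sets did. Of 59 mitochondrial ribosomal protein genes 54 were higher, with a median of 0.10, which was 0.053 without control replicate 4 and 0.147 without selenium replicate 1. Of 71 cytosolic ribosomal protein genes 58 were higher, with a median of 0.04, which was 0.023 without control replicate 2. The iron-sulphur subunit gene of complex II, sdhb, read 11.94, 12.09, 12.08 and 12.18, against 11.79, 11.72, 11.83 and 11.84 in controls, a difference of 0.28 ± 0.07 (unadjusted p = 0.00078). The complex I subunit gene ndufc1 read 10.70, 10.61, 10.62 and 10.53, against 10.31, 10.41, 10.04 and 10.02 in controls, and the complex III core gene uqcrc2a read 11.24, 11.49, 11.35 and 11.43, against 11.06, 11.31, 10.96 and 11.05. The groups did not overlap for sdhb and ndufc1. Of the mitochondrial ribosome, mrpl41 read 9.32, 9.42, 9.43 and 9.41, against 9.09, 9.29, 8.84 and 8.64 in controls, and mrpl37 read 9.59, 9.74, 9.77 and 9.78, against 9.47, 9.43, 9.62 and 9.36.

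Selenium replicate 1, which had the most muscle signal, took different places in these lists. It had the lowest respiratory chain mean of the males on selenium, 11.35 beside 11.40, 11.46 and 11.43, against 11.32, 11.35, 11.39 and 11.28 in controls. Its mitochondrial ribosomal mean was 9.43 beside 9.60, 9.61 and 9.62, against 9.50, 9.46, 9.54 and 9.37 in controls. Its cytosolic ribosomal mean was the highest of the 8 males, at 12.863 beside 12.851, 12.822 and 12.862, against 12.836, 12.785, 12.799 and 12.83 in controls. With the muscle and retina covariates the medians were 0.14 for the respiratory chain, 0.27 for the mitochondrial ribosome and 0.07 for the cytosolic ribosome. Of 50 proteasome genes, read for comparison, 27 were higher, with a median of 0.02, which was -0.002 when each array was centred on its median. With the muscle and retina covariates the proteasome median was 0.12, above that of the cytosolic ribosome, so a higher median in that fit was not particular to these lists.

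The 24 selenoprotein genes gave small differences. Of them 17 were higher, with a median difference of 0.04 and a range from -0.16 to 0.43. The median was 0.015 without control replicate 4 and 0.067 without selenium replicate 3. The upper end was gpx4b, which encodes a peroxidase that repairs oxidised membrane lipids. It read 11.43, 11.53, 11.52 and 11.52 in males on selenium, against 10.90, 11.43, 11.24 and 10.71 in controls, a difference of 0.43 ± 0.16 (unadjusted p = 0.020). The males on selenium lay within 0.1 of each other, and the controls spread over 0.7, with control replicate 2 beside the lowest male on selenium. The cytosolic peroxidase gene gpx1a read 10.93, 11.11, 11.10 and 11.01, against 10.85, 10.87, 10.94 and 10.88 in controls, and selenot1b, of the endoplasmic reticulum, 8.93, 8.85, 8.74 and 9.19, against 9.06, 9.09, 9.13 and 9.09. Of 30 antioxidant and glutathione genes 18 were higher, with a median of 0.04, which was 0.0063 without control replicate 1. Glutathione reductase, gsr, read 8.80, 8.75, 8.75 and 8.68, against 8.39, 8.24, 8.52 and 7.95 in controls, with groups that did not overlap and a difference of 0.47 ± 0.21. The mitochondrial glutaredoxin gene glrx5 and the superoxide dismutase gene sod2 were higher by 0.24 ± 0.09 and 0.15 ± 0.09.

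Stress, clock and proliferation lists gave small medians. Of 21 genes of the glucocorticoid response 9 were higher, with a median of -0.03. The feedback gene tsc22d3 was lower in all 4 males on selenium, at 11.81, 11.59, 11.43 and 11.52, against 11.90, 11.81, 11.82 and 11.9955 in controls, with replicate 1 just under the lowest control. Of the receptor gene nr3c1, 2 dimmer probe sets differed by -0.88 ± 0.27 and -0.81 ± 0.30, and the brightest by -0.21 ± 0.13. The first of these read 5.67, 5.93, 6.04 and 6.45, against 7.22, 6.52, 6.54 and 7.32 in controls. Of 48 cell cycle genes 34 were lower, with a median of -0.10, which was -0.055 without control replicate 1. Among them, the spindle checkpoint gene mad2l1 read 5.10, 4.97, 5.17 and 5.05, against 5.46, 5.46, 5.89 and 5.65 in controls. The mitotic kinase gene plk1 read 5.19, 5.24, 4.91 and 4.95, against 5.41, 5.33, 5.44 and 5.57. In the males on selenium both lay near 5, the limit of the filter for low signal. Among 27 clock genes 13 were higher (median -0.01), among 28 heat shock and chaperone genes 17 (median 0.03), and among 22 genes of endoplasmic reticulum stress 7 (median -0.04).

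Markers of brain cells gave small differences as well. The mean of 13 neuronal genes was 12.02, 11.96, 12.10 and 12.07 in males on selenium, against 12.13, 12.06, 12.10 and 12.10 in controls, with 10 genes lower and a median difference of -0.07, which was -0.039 without control replicate 4. The 8 myelin genes had a median of -0.02. Of 20 genes of radial glia and astrocytes 14 were lower, with a median of -0.10, which was -0.054 without selenium replicate 2. The glutamine synthetase gene glula, an enzyme of glia that recycles glutamate, read 12.10, 11.94, 12.18 and 12.13, against 12.31, 12.24, 12.23 and 12.28 in controls, and the neural stem cell gene sox2 read 9.86, 9.67, 10.11 and 9.89, against 10.27, 10.15, 10.12 and 10.04. For glula the groups did not overlap, by a narrow margin, and for sox2 selenium replicate 3 lay above a control. Of 18 microglia and leukocyte genes 7 were higher, with a median of -0.08, and of 10 erythrocyte genes 2, with a median of -0.03.

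The diet difference of males was set against that of females, read from 4 females on selenium and 3 female controls in the same fit. The limma test of the difference between the sexes called 0% of the probe sets, with a smallest adjusted p of 0.442. At an unadjusted p under 0.05 there were 1298, where 5% would be 775. The muscle mean was 6.47 ± 0.10 in females on selenium (SD, n = 4) and 6.18 ± 0.15 in female controls (n = 3). All 4 females on selenium (6.35 to 6.58) lay above all 3 female controls (6.01 to 6.27), so this mean was higher on selenium in both sexes. The same mean in males was 7.17 ± 0.96 on selenium and 6.23 ± 0.11 on the control diet (SD, n = 4 each). The female difference was uneven over the muscle lists. Its median was 0.41 for calcium handling, 0.17 for the fast and 0.13 for the slow contractile list. For muscle energy metabolism it was 0.02, with 6 of 12 genes higher. The retina mean was 5.25 ± 0.51 in females on selenium (SD, n = 4) and 5.28 ± 0.82 in female controls (n = 3). It was highest in female control replicate 2, at 6.23, and next in female selenium replicate 2, at 5.99, so high retina signal occurred on both diets. For ckmt2a the female difference was -0.04, and male minus female was 2.41 ± 0.58 (unadjusted p = 0.00093, adjusted p = 0.447, limma). The sdhb difference was -0.25 in females and the male minus female value 0.53 ± 0.10 (unadjusted p = 8.7e-05, adjusted p = 0.442). For kpna3 the female difference was 0.13, with -0.46 ± 0.10 for male minus female (unadjusted p = 0.00043, adjusted p = 0.442). These 3 genes were named for their small p in males, and the male difference is part of male minus female. Their unadjusted p-values are therefore favoured by that choice and support no difference between the sexes. The immediate early genes had a median difference of 0.07 in females, and cholesterol synthesis genes one of 0.06. The shift of each between the sexes was not tested as a list. The gapdh 3′ minus 5′ value was 1.59 ± 0.24 in females on selenium (SD, n = 4) and 1.19 ± 0.37 in female controls (n = 3), a difference in the opposite direction to that of males, and its part in the sex comparison was not tested.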

How the data were processed

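The authors deposited 1 log2 value per probe set and array. RMA and affy are named for this step, per the submitters' processing notes, with no version in the sources used. The values were used unchanged. The array annotation gave 1 gene symbol to 10795 of the 15502 probe sets tested, several to 135 and none to 4572. Coordinates and sequences were not used here. With limma 3.58.1 in R 4.3.3, 4 group means were fitted to all 15 arrays (11 residual degrees of freedom), with two-sided moderated tests and Benjamini-Hochberg adjustment over all 15502. The p-values and the SEs of differences rest on the spread between these fish within all 4 groups, females included. No label pairs fish or gives a batch, so none was fitted.

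Each list gene was represented by its brightest probe set, and a list is described by counts and its median. The members and lists were chosen with earlier results of these data known. Named genes were drawn from the 15 higher and 15 lower probe sets of smallest p, the 10 of largest difference each way, the 10 of smallest p each way with covariates, members of the lists (for most lists the 6 of largest difference and the 6 of smallest p) and the other probe sets of these genes; oxt is outside this rule. Steps of 2 log2 units between the males were counted after the data were seen. The fit was tested on simulated data. Alternatives covered scaling, filtering, the variance model, array weights, covariates and left-out fish.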

Additional observations from a re-analysis of the deposited data

Results flagged for a closer look

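Single fish stood apart from the other 3 of their group by Dixon's ratio in 18 of 256 groups of 4 examined (7.03%). Chance gives about 1 in 20 for independent groups that were not selected. The genes and lists examined here were chosen with the data known and many move together, so the 2 shares make no test. Among males on selenium, replicate 1 stood apart for mybpc2b, at 9.61, for the mitochondrial ribosomal list mean, at 9.43, and for gpx4b, at 11.43, and replicate 4 for a probe set of nr3c1, at 8.04. Control replicate 2 stood apart most often: upward for the list means of cone photoreceptor genes, at 5.70, and epidermis genes, at 6.69, and for opn1sw2 (6.17), gngt2b (6.34), gnat1 (6.33), actc1b (8.76), pabpc4 (7.99), u2surp (9.11) and wls (10.41). Control replicate 1 stood apart for the cell cycle list mean, at 6.69, for npr3 (8.07), for dhcr7 (7.46) and for 2 probe sets of si:dkey-260j18.2 (5.89 and 8.55). The causes were not tested.

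Of the manufacturer's actin control probe sets, which the comparison left out, the 3′ and middle ones followed the muscle list means. The mean over males on selenium was 10.39 for the 3′ probe set, 9.05 for the middle one and 5.20 for a 5′ one, each above the mean of male controls. The 3′ probe set read 13.24, 9.80, 10.22 and 8.31 in selenium replicates 1 to 4, against 8.23, 8.84, 8.03 and 8.14 in controls, and the males on selenium stood in the order of their muscle list means. That 5′ probe set did not keep this order, at 5.06, 5.15, 5.37 and 5.22, against 4.36, 5.02, 4.42 and 4.58 in controls. A further 5′ probe set read 7.06, 6.20, 6.11 and 5.54, against 5.996, 5.58, 5.48 and 5.70 in controls, with selenium replicate 4 among the controls.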

How the results depend on the processing

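No paired analysis was possible because no label pairs fish across the diets. The number of fish, 4 in each group of males, limits what can be called. No probe set was called in males under any scaling, filter, variance model, weighting or covariate, or without any single fish. At an unadjusted p under 0.05, leaving out 1 fish gave 576 (without control replicate 1) to 910 (without control replicate 2) probe sets in place of 811, and both covariates gave 508. Leaving out selenium replicates 1 and 3 gave 13 calls, and 2 and 4 gave 15, with 1 and 2 for male minus female. These pairs were chosen for their muscle and retina signal, so such calls support nothing.

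Some log2 differences turned sign, and the cause was not tested. Medians of the 37 lists did so as well, in 80 of 1035 values over the alternatives and left-out fish. With both covariates the epidermis median was -0.11, that of heat shock and chaperone genes -0.07 and that of endoplasmic reticulum stress 0.11. The pineal median was -0.15 with the retina covariate. The genes pvalb3, mybpc2b, mylpfa, actc1b and tnnc2.2 are part of the muscle mean. Likewise rbp4l, rpe65a, crx, rbp3, gngt1 and gnat1 are part of the retina mean. Their values with the covariate that holds them do not show what was left beside that tissue. The cyp51, u2surp and leo1 values here are those of probe sets with differences near 0 (for u2surp -0.13 and 0.02, for leo1 0.09), and the larger differences of these genes kept their sign. With array weights cyp51 gave -0.0285 and -0.0159. With the muscle covariate the values were krt91 -0.1384, pvalb3 -0.0876, mybpc2b -0.6501, leo1 -0.0719, kpna3 (second probe set) 0.0745, mylpfa -0.2375 and tnnc2.2 -0.5511. With the retina covariate they were rbp4l -0.961, rpe65a -0.147, crx -0.3974, rbp3 -0.527, exorh -0.0954, aanat2 -0.3242, gngt1 -0.6367, gnat1 -0.5586 and cyp51 -0.0359 and -0.0755. With both covariates they were rbp4l -1.7191, krt91 -0.0255, crx -0.3259, pvalb3 -0.8062, mybpc2b -1.3419, kpna3 (second) 0.1143, u2surp (the one at -0.13) 0.014, mylpfa -0.1086, rbp3 -0.17, actc1b -0.1806, tnnc2.2 -1.254, gngt1 -2.1917, gnat1 -1.4669 and cyp51 -0.201. With the gapdh covariate u2surp (the one at 0.02, as in what follows) gave -0.0105 and cyp51 -0.0184 and -0.0187. Without selenium replicates 1 and 3, cnpy4 gave -0.014, leo1 -0.0831 and kpna3 (second) 0.0799. Without selenium replicates 2 and 4, rbp4l gave -0.458, rpe65a -0.2768, u2surp -0.0329, crx -0.3606, dhcr7 0.3176, rbp3 -0.4373, exorh -0.0343, aanat2 -0.3205, opn1sw1 -0.1266, gnat1 -0.2696 and cyp51 -0.0683 and -0.1235. Without single fish, the ranges were -0.0097 to 0.0683 for u2surp, -0.0674 to 0.0662 and -0.0741 to 0.1347 for the 2 cyp51 probe sets, and -0.1159 to 0.4443 for cnpy4.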

Other observations

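A set of 3 control probe sets of the array, unnamed here, stood at 1 of 2 levels in each fish. In males they read between 10.28 and 13.01 in selenium replicates 3 and 4 and in control replicates 2 and 3, and between 3.21 and 3.84 in selenium replicates 1 and 2 and in control replicates 1 and 4, so each diet held 2 high and 2 low fish. The strain is labelled transgenic, and what the step reads was not tested. It does not part the fish as muscle, retina or keratin genes do.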
